A study of Mus musculus with 4 samples.

Results

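The genes described here are the cyclins, cyclin-dependent kinases (CDK) and CDK inhibitors that govern passage through the G1 phase of the cell cycle. They were chosen by symbol, with earlier results of these data known. They comprise 10 of the 47937 genes in the deposited count table, namely the D-type cyclins Ccnd1, Ccnd2 and Ccnd3, the E-type cyclins Ccne1 and Ccne2, the kinases Cdk4 and Cdk6, and the inhibitors Cdkn1b, Cdkn2a and Cdkn2b. All 10 were found and all 10 passed the filter on low counts. They were measured by total RNA sequencing in mouse embryonic fibroblasts (MEF cells) of 1 line, cultured with serum and either left untreated or exposed to 50 µM genistein for 24 h, with 2 libraries in each group. The labels give wild-type as the genotype of the untreated cells and name only the treatment for the genistein cells, and whether the untreated cells of these libraries received the solvent DMSO is not stated in the labels. Genistein is a plant isoflavone with described activity against tyrosine kinases and DNA topoisomerase. No source says whether the libraries of a group came from separate cultures, so the tests measure the spread between these libraries, which may be technical.

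D-type cyclins are made in response to growth signals and bind Cdk4 or Cdk6. The active complexes phosphorylate the retinoblastoma protein, which releases E2F transcription factors, and these raise the E-type cyclins that bind Cdk2 and carry the cell into S phase. The INK4 proteins encoded by Cdkn2a and Cdkn2b block Cdk4 and Cdk6, whereas the protein of Cdkn1b, known as p27, binds cyclin E complexes of Cdk2. Protein levels, phosphorylation and the share of cells in each phase were not measured in these libraries, and fewer cells with a transcript cannot be told apart from less transcript per cell. For the same dose and time, the paper reports from FACS that most cells moved to the G2/M phase and that a smaller G1 population remained. The part of that shift in the results below was not tested.

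The total count over genes and repeats lay between 28591958 and 31464284 per library. Across genes and repeats, Pearson's r of log2 library-scaled counts was 0.996 between the untreated libraries, 0.995 between the genistein libraries and 0.960 to 0.964 between groups. Of 10 fibroblast markers 8 passed the filter, and the summed normalised count of the list was 428200 and 440000 without genistein and 418100 and 408900 with it. Single genes of the list moved in different directions. Dcn (6795 and 6399 without genistein, 13630 and 14240 with it) and Fn1 were higher with genistein. Pdgfrb (2651 and 2654 without genistein, 1606 and 1592 with it), Col1a1, Col1a2, Col3a1, Vim and Pdgfra were lower. Thy1 was at 0 in every library and Lum was at or below 9.99 normalised counts. Of the markers of other cell types, Epcam, Krt5, Adgre1, Aif1, Myod1, Myf5, Sox10 and Sox2 were at 0 in all 4 libraries. Low but above 0 in at least 1 library were Cdh1 (3.75 to 8.10 normalised counts), Pecam1 (2.00 to 9.11), Gfap (2.997 to 6.56), Ptprc (at most 1.01), Cdh5 (at most 0.999) and Myog (at most 0.938). Among the marker lists of other cells, the summed level of 6 epithelial genes was 1130 to 1163 in untreated and 230.8 to 251.3 in genistein libraries, nearly all Krt8 and Krt14. That of 5 macrophage genes was 191.6 to 209.8 and 545.7 to 569.9, nearly all Csf1r and Cd68. That of 4 muscle genes was 29.6 to 37.0 and 264.2 to 284.1, of which Des held 29.6 to 37.0 and 264.2 to 283.2. The 4 endothelial genes summed to 25.0 to 30.7 and 85.3 to 97.2, and the 4 neural genes, almost all Tubb3, to 859.7 to 915 and 745 to 781.1. The part of these markers in the results below was not tested.

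The comparison of genistein-exposed with untreated MEF cells asked how transcripts of the G1 machinery differ after the exposure. The transcripts of both E-type cyclins fell more than those of the other 8 members, Ccne1 to 0.327 and Ccne2 to 0.377 of the untreated level. Ccnd1 and Cdk4 fell to 0.615 and 0.595 of the untreated level, Ccnd3 and Cdk6 fell by smaller amounts, and Ccnd2 was higher by a factor of 1.09. The estimates for the 3 inhibitors were within 10% of the untreated level, at 0.935 for Cdkn1b, 0.907 for Cdkn2a and 0.980 for Cdkn2b. The 95% intervals reached down to 0.880 for Cdkn1b and 0.846 for Cdkn2a. By the quasi-likelihood test of edgeR, adjusted after Benjamini and Hochberg over 17358 genes and repeats, 8 of the 10 members were lower, 1 was higher and 1 did not pass at an adjusted p-value under 0.05. Over all 16240 tested genes 38.2% were lower and 33.5% higher by the same rule (71.7% in either direction), and among the 7370 genes with at least the mean count of the lowest member, 54% were lower and 30.1% higher. The median log2 fold change was -0.25 over the members and -0.03 over all tested genes. Of the 8 lower members, Cdkn1b and Cdkn2a lost the call with library totals, with factors from genes alone and with DESeq2, as given with their values. They also lost it when some, but not all, of the single libraries were left out. Both kept it with RLE size factors (adjusted p = 0.0331 and 0.00949, edgeR) and without the filter on low counts (adjusted p = 0.0153 and 0.00131, edgeR). Against a log2 fold change of 0.5 in place of 0, 4 members were lower and 0 were higher, against 14.9% and 14.7% of all tested genes.

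**Figure D1:**
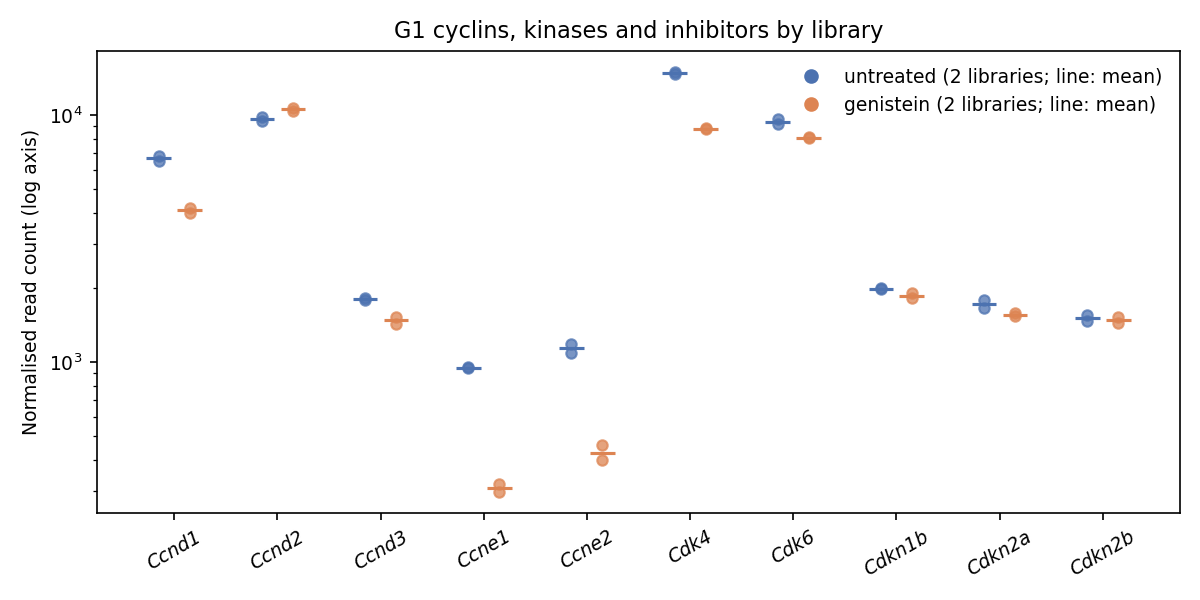
Normalised read count (log axis) of the 10 members in each of the 2 untreated and 2 genistein libraries, with a line at each group mean. Ccne1 and Ccne2 show the widest gap between groups, from means of 947.9 and 1136 to 309.2 and 429.5, while the points of Cdkn2b overlap.

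The methods of the study ask in addition for a change beyond 1 on the log2 scale in either direction and for more than 100 normalised counts on average. By these thresholds 2 members were lower (Ccne1 and Ccne2) and 0 were higher. They called 4.16% of all tested genes lower and 3.92% higher. Normalised counts here are counts brought to the mean effective library size of the 4 libraries. Of the 10 members, 9 had no overlap between the libraries of the groups, 8 in the lower and 1 in the higher direction, against 85.3% of all tested genes (44.6% lower and 40.7% higher).

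**Figure D2:**
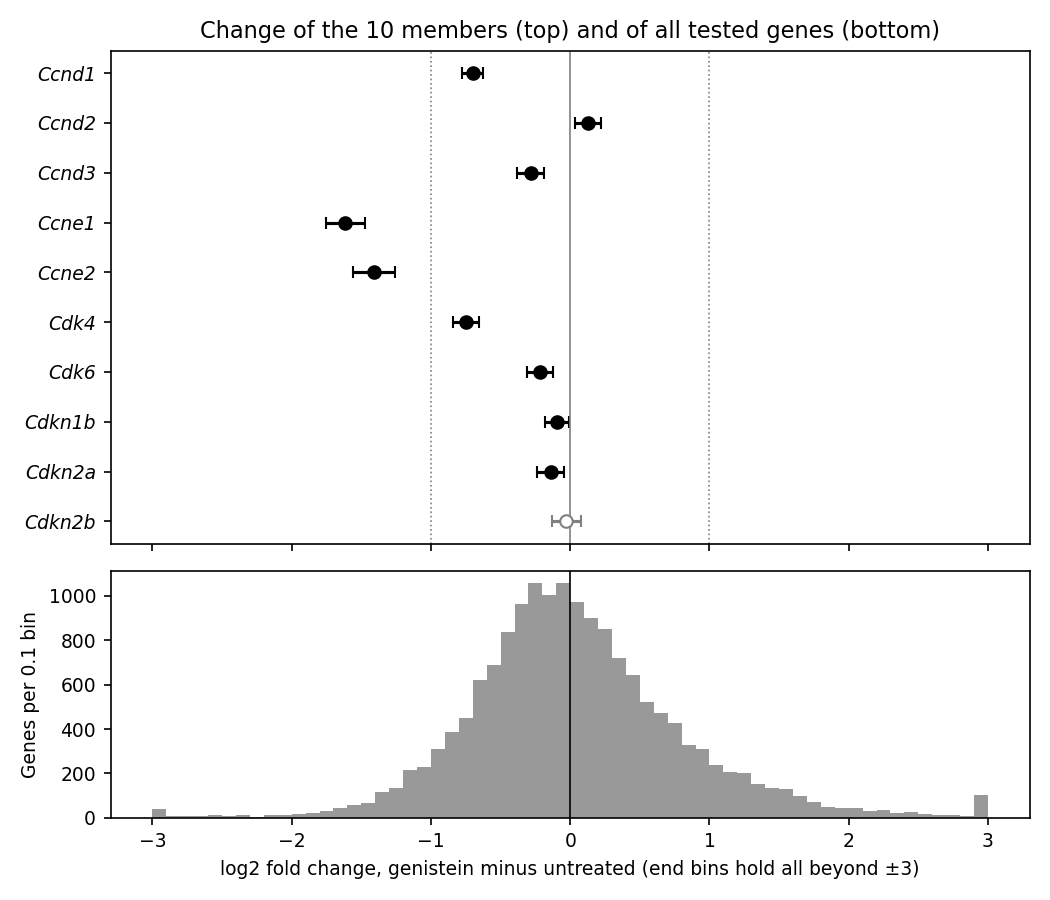
Top, log2 fold change (genistein minus untreated) of each member with its 95% interval, filled where the adjusted p-value was under 0.05 and open otherwise, with dotted lines at the study's fold threshold. Bottom, number of tested genes per bin of log2 fold change. Ccne1 (-1.61) and Ccne2 (-1.41) lie left of the dotted line, and the 3 inhibitors lie between -0.14 and -0.03.

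Among the D-type cyclins, Ccnd1 (ENSMUSG00000070348; GRCm38 chromosome 7, 144929931 to 144939925, minus strand) is a classic target of mitogen signalling. Its normalised count was 6841 and 6530 without genistein and 4017 and 4208 with it. Both genistein libraries lay far below both untreated libraries. The group means were 6685 ± 219.8 and 4112 ± 134.7 (SD, n = 2), a log2 fold change of -0.70 (SE 0.03, adjusted p = 2.85e-11, edgeR). Of all tested genes, 13.6% had a lower log2 fold change.

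Ccnd2 (ENSMUSG00000000184; chromosome 6, 127125162 to 127152193, minus strand), the D-type cyclin that takes part in gonadal and neural growth, went the other way. It had 9475 and 9815 normalised counts without genistein and 10730 and 10390 with it. The groups did not overlap, and the gap between their nearest libraries exceeded the difference within each pair. The fitted log2 change was 0.13 (SE 0.04), with a 95% interval of 0.04 to 0.22 (adjusted p = 0.0141, edgeR). Without untreated replicate 1 it was 0.10 (adjusted p = 0.176, edgeR) and no longer passed, so that no member was then called higher. The 95% intervals of Ccnd1 (-0.78 to -0.63) and Ccnd2 did not overlap.

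Ccnd3 (ENSMUSG00000034165; chromosome 17, 47505051 to 47599691, plus strand), the D-type cyclin best known from lymphocytes, was the lowest of the D-type cyclins per length. It had 1776 and 1808 normalised counts without genistein and 1520 and 1426 with it. The genistein libraries lay below the untreated libraries by more than either pair spread. This gave a log2 fold change of -0.28 (SE 0.05, adjusted p = 3.74e-05, edgeR), within the middle of the distribution of all genes, of which 33.9% had a smaller absolute change.

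Levels of different genes can be compared only per length, here as reads per kilobase of the union of annotated exons per 1000000 effective library reads (RPKM). On this scale the D-type cyclins summed to 89.0 and 88.1 RPKM without genistein and 72.4 and 72.2 RPKM with it. Ccnd1 held 54.6% and 52.6% of that sum without genistein and 39.4% and 41.4% with it. Ccnd2 held 37.8% and 39.6% without genistein and 52.6% and 51.1% with it. The share of Ccnd3 was 7.60% to 7.82% and 7.52% to 8.0%, with overlapping groups. Ccnd1 therefore had the largest share in untreated and Ccnd2 in genistein libraries, but the order in untreated libraries depended on the length used. With coding length the untreated means were 36.5% for Ccnd1 and 53.7% for Ccnd2, and the genistein means were 25.1% and 65.8%. The groups of Ccnd3 did not overlap with that length, at 9.80% and 9.94% without genistein and 9.31% and 8.86% with it. The shift of the share from Ccnd1 to Ccnd2 was present with each of the 3 lengths tried. The shares are given as a description and were not tested. The ratios between genes given below used the exon union only, and their size depends on that length.

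**Figure D3:**
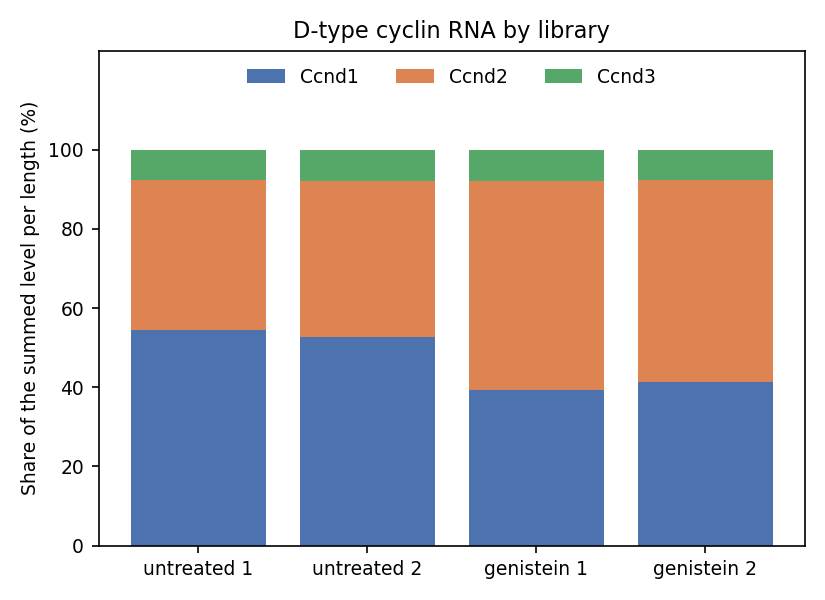
Share (%) of each D-type cyclin in the summed level of the D-type cyclins per exon length, 1 bar for each library. The Ccnd2 part grows from 37.8% and 39.6% in the untreated libraries to 52.6% and 51.1% in the genistein libraries, while the Ccnd1 part shrinks.

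The partner kinases differed in the size of their change. Cdk4 (ENSMUSG00000006728; chromosome 10, 127063534 to 127067920, plus strand) was the highest of the 10 members per exon union length, at 154.1 and 150.6 RPKM without genistein and 90.3 and 91.1 RPKM with it. That rank depended on the length used. Ccnd2 has 867 coding bases against 909 for Cdk4, and its raw counts with genistein were higher (11439 and 10269 against 9361 and 8749). By coding length Ccnd2 therefore ranked above Cdk4 in the genistein libraries. The normalised counts of Cdk4 were 14980 and 14630 without genistein and 8778 and 8856 with it. The gap between the groups was many times the spread within them. The log2 fold change was -0.75 (SE 0.04, adjusted p = 2.79e-10, edgeR).

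Cdk6 (ENSMUSG00000040274; chromosome 5, 3341485 to 3531008, plus strand), the close relative of Cdk4 that binds the same cyclins, had 9163 and 9666 normalised counts without genistein and 8119 and 8082 with it. Both genistein libraries were lower, by more than the spread of either pair. The estimated log2 change was -0.22 (SE 0.04, adjusted p = 0.000248, edgeR). Its 95% interval, -0.31 to -0.13, did not overlap that of Cdk4, -0.84 to -0.65. The ratio of Cdk4 to Cdk6 RNA per length was 7.04 and 6.52 without genistein and 4.66 and 4.72 with it, so Cdk4 remained the more abundant of the pair in all 4 libraries.

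The E-type cyclins drive entry into S phase with Cdk2 and showed the largest changes of the 10 members. Ccne1 (ENSMUSG00000002068; chromosome 7, 38097984 to 38107534, minus strand) had 944 and 951.8 normalised counts without genistein and 319.8 and 298.6 with it. Within each group the libraries were nearly equal, and the genistein pair lay far below the untreated pair. On the log2 scale the change was -1.61 (SE 0.06, adjusted p = 2.09e-12, edgeR), and 1.49% of tested genes had a lower value.

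Because Ccne1 changed most, its promoter is shown from 250 bases before to 50 bases after the annotated start (RefSeq, build GRCm38.p6, chr7:38107441-38107740, minus strand), with capitals marking the GC box letters GGGCGG on either strand.
Ccne1 promoter: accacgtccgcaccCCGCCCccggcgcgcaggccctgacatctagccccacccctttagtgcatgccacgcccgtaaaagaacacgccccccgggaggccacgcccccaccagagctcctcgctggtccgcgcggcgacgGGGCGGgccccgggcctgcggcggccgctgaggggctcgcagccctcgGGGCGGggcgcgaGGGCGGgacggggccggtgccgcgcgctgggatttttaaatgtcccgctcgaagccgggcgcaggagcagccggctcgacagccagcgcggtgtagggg
It holds 4 matches, and 35.7% of the 32851 promoters of this length in the table hold at least 1. Promoters were found for 7 of the 10 members, 9 promoters in all, and 6 of these members held such a match in at least 1 promoter. The Ccne1 window is 76.0% G or C, and 96.9% of promoters have a lower share. The matches are therefore a description, and enrichment was not tested. The letters TTTCCCGC, TTTGGCGC, TTTGCCGC and TTTCGCGC, which are forms of the E2F consensus, were not in this window on either strand. Only these exact letters were searched, so whether the window holds a variant E2F site was not tested.

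Ccne2 (ENSMUSG00000028212; chromosome 4, 11191351 to 11204779, plus strand), the second gene for an E-type cyclin, had 1183 and 1089 normalised counts without genistein and 399.5 and 459.5 with it. The groups stood well apart, although both pairs spread more than those of Ccne1. The fitted log2 change was -1.41 (SE 0.07, adjusted p = 3.27e-11, edgeR). The 95% intervals of Ccne1 (-1.75 to -1.48) and Ccne2 (-1.56 to -1.26) overlapped, and their difference was not tested. The ratio of Ccne1 to Ccne2 RNA per length was 1.05 and 1.15 without genistein and 1.05 and 0.853 with it. The pair summed to 23.2 and 22.4 RPKM without genistein and to 7.84 and 8.14 RPKM with it. D-type cyclin RNA per length was 3.84 and 3.94 times that of the E-type cyclins without genistein and 9.24 and 8.87 times with it.

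Of the inhibitors, Cdkn1b (ENSMUSG00000003031; chromosome 6, 134920401 to 134925513, plus strand) encodes p27, whose amount is known to be set largely by protein degradation. It had 1985 and 1984 normalised counts without genistein and 1814 and 1900 with it. Both genistein libraries were lower, by amounts near the spread of the genistein pair. This gave a log2 fold change of -0.10 (SE 0.04), with a 95% interval of -0.18 to -0.01 (adjusted p = 0.045, edgeR). The call was lost without untreated replicate 1 (-0.10, adjusted p = 0.0844, edgeR), without untreated replicate 2 (-0.10, adjusted p = 0.0857, edgeR) and without genistein replicate 1 (-0.06, adjusted p = 0.349, edgeR). It was also lost with library totals (-0.03, adjusted p = 0.616, edgeR), with factors from genes alone (-0.05, adjusted p = 0.254, edgeR) and with DESeq2 (-0.11, adjusted p = 0.165). Per length, Cdkn1b RNA was 0.629 and 0.651 times that of the summed E-type cyclins without genistein and 1.70 and 1.71 times with it. This ratio used the exon union, 4552 bases for Cdkn1b, 2662 for Ccne1 and 3495 for Ccne2. Their longest coding lengths are 591, 1224 and 1212 bases. Whether Cdkn1b lies below the E-type cyclins without genistein therefore depends on the length used. Cdkn1b itself was 14.6 and 14.6 RPKM without genistein and 13.3 and 13.9 RPKM with it.

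Cdkn2a (ENSMUSG00000044303; chromosome 4, 89274471 to 89294653, minus strand) encodes unrelated proteins from transcripts with different first exons. The shorter transcript unit encodes the CDK inhibitor p16Ink4a, and the one that starts farther upstream encodes p19Arf, which binds Mdm2 and thereby stabilises p53. In GENCODE the transcripts start at 89282192 and 89294653 and share 575 exon bases, 317 of them coding in both. The deposited count sums them, so the value cannot be assigned to either protein. Both starts are shown for that reason, each from 250 bases before to 50 bases after the RefSeq start (build GRCm38.p6, minus strand), with capitals marking a match to the 4 E2F forms above on either strand, searched apart from the GC box.
Cdkn2a start of the p16Ink4a transcript, chr4:89282143-89282442: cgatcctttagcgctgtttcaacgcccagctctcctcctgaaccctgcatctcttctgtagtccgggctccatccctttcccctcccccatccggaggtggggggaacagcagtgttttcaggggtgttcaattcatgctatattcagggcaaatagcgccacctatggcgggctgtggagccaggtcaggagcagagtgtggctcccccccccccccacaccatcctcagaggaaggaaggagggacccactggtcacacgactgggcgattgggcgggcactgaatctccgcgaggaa
Cdkn2a start of the p19Arf transcript, chr4:89294570-89294869: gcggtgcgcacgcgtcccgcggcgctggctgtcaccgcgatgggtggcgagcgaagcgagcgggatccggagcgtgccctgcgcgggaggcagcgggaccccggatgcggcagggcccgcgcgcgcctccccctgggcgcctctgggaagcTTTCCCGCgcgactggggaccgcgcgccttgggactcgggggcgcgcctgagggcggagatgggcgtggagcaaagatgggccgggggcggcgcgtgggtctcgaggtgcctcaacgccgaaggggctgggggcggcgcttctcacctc
The upstream start holds 1 match, which begins 99 bases before the start, and the downstream start holds 0. In all, 2.26% of the 32851 promoters hold such a match. Of the 7 members with a promoter, which have 9 promoters together, 1 does.

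The normalised count of Cdkn2a was 1778 and 1649 without genistein and 1533 and 1577 with it. The genistein libraries lay just below the lower untreated library. The log2 fold change was -0.14 (SE 0.05), with a 95% interval of -0.24 to -0.04 (adjusted p = 0.0135, edgeR). The call was lost without untreated replicate 1 (-0.09, adjusted p = 0.154, edgeR) and without genistein replicate 1 (-0.12, adjusted p = 0.0805, edgeR). It was lost as well with library totals (-0.07, adjusted p = 0.21, edgeR), with factors from genes alone (-0.10, adjusted p = 0.0719, edgeR) and with DESeq2 (-0.15, adjusted p = 0.0648). Per length, Cdkn2a ranked above 93.6% of tested genes, at 50.7 and 47.0 RPKM without genistein and 43.7 and 45.0 RPKM with it.

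Cdkn2b (ENSMUSG00000073802; chromosome 4, 89306299 to 89311039, minus strand) encodes the INK4 inhibitor p15, known as a target of TGF-β signalling. It had 1549 and 1462 normalised counts without genistein and 1438 and 1516 with it, and the groups overlapped. The estimated log2 change was -0.03 with a 95% interval of -0.13 to 0.07 (adjusted p = 0.609, edgeR), which as a fold of the untreated level runs from 0.913 to 1.05. Its direction was not fixed, since the value was 0.04 with library totals and 0.01 with factors from genes alone. The RNA of Cdkn2a and Cdkn2b together was 0.50 and 0.473 times that of Cdk4 and Cdk6 per length without genistein and 0.714 and 0.738 times with it.

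The small changes of Cdkn2a and Cdkn2b stood beside larger ones nearby. Mtap, an enzyme gene of methionine salvage that lies within 100 kb of Cdkn2a, had 6684 and 6381 normalised counts without genistein and 3107 and 3101 with it (log2 fold change -1.07, adjusted p = 1.2e-13, edgeR). Gm12609, a noncoding gene within 100 kb of Cdkn2b, had 30.97 and 33.9 normalised counts without genistein and 15.0 and 24.3 with it (log2 fold change -0.73, SE 0.29, adjusted p = 0.0333, edgeR). The value for Gm12609 is imprecise, since its raw counts were only 31 and 32 without genistein and 16 and 24 with it. Gm12606 had 1 or 2 raw counts in each library, and the other annotated neighbours, Gm26490 and Tgif2-ps1, had 0.

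Several members overlap genes on the opposite strand, and whether the counting used strand is not given in the sources used here. Ccnd1 shares 1100 exon bases with LTO1, which had 366 to 414 raw counts, Cdk4 shares 641 with Tspan31, Ccne2 shares 609 with Ints8, and Ccnd3 shares 361 with Bysl. The log2 fold changes of these partners were 0.05 for LTO1 (adjusted p = 0.58), 0.32 for Tspan31 (adjusted p = 1.97e-06), -0.33 for Ints8 (adjusted p = 1.64e-06) and -1.39 for Bysl (adjusted p = 1.46e-12, all edgeR). The values of these 4 members are uncertain to that extent. The antisense genes over Ccnd2 and Cdk6 had at most 16 raw counts in a library. Related members share short exact runs only, as the longest exact run shared by protein-coding transcripts was 14 to 20 bases between D-type cyclins, 18 between E-type cyclins, 20 between Cdk4 and Cdk6 and 23 between Cdkn2a and Cdkn2b. The pseudogene Ccnd3-ps had 10 to 16 raw counts.

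Other genes of the G1 pathway were taken from 5 lists written from general knowledge, with earlier results of these data known. Their counts are set beside the share over all tested genes as a description, not as a test. Of 48 genes 47 were tested, and 31 were lower, 11 higher and 5 did not pass (edgeR, adjusted p-value under 0.05), with a median log2 fold change of -0.35. The same rule called 38.2% of all tested genes lower and 33.5% higher, and 54% and 30.1% of those with at least the mean count of the lowest member. Of these 47, the study's thresholds called 1 lower and 4 higher, where they called 4.16% and 3.92% of all tested genes.

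The list of other CDK inhibitors held 4 genes, of which Cdkn1c did not pass the filter. Cdkn1a encodes p21, the p53 target that inhibits cyclin E and Cdk2, and had 369.6 and 360 normalised counts without genistein and 2597 and 2400 with it. Its log2 fold change of 2.78 (adjusted p = 9.08e-16, edgeR) contrasted with those of the INK4 genes Cdkn2c at -0.15 (adjusted p = 0.0158) and Cdkn2d at -0.50 (adjusted p = 8.8e-05, both edgeR). Rising transcripts among the 6 tested CDK inhibitors of both lists were thus limited to Cdkn1a.

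All 7 genes of the list for Cdk2, its activators and Ccna2 were lower, against 38.2% of all tested genes and 54% of those at or above the mean count of the lowest member. The phosphatase Cdc25a, which activates Cdk2, had a log2 fold change of -0.91, the S phase cyclin Ccna2 of -0.79, the chaperone partner Cdc37, which loads Cdk4, of -0.63 and Cdk2 of -0.62. The CDK-activating kinase genes Cdk7, Ccnh and Mnat1 fell less, by 0.38, 0.19 and 0.21 on the log2 scale.

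Among 13 RB and E2F genes, 9 were lower, 3 higher and 1 (Tfdp2, -0.03) did not pass, beside 38.2% lower and 33.5% higher over all tested genes. Over genes at or above the mean count of the lowest member, 54% were lower and 30.1% higher. The higher ones were Rb1 (log2 fold change 2.05), its relative Rbl2 (0.84) and E2f1 (0.65). Rb1 encodes the retinoblastoma protein that cyclin D kinases inactivate, and had 239.7 and 280.6 normalised counts without genistein and 1092 and 1053 with it. Among the lower ones past 0.5 were E2f8 (-0.97), E2f4 (-0.88), E2f2 (-0.76) and the E2F partner Tfdp1 (-0.68).

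Of 12 genes for the turnover of cyclins and p27, 8 were lower, 1 higher (Fbxw7, 0.30) and 3 did not pass. The share lower was 38.2% over all tested genes and 54% over those at or above the mean count of the lowest member, so this count was not far from the background. Skp2, the ubiquitin ligase subunit that targets p27, had a log2 fold change of -0.99, and its cofactor Cks1b one of -0.51. The ligase subunits Cul1 and Rbx1 had -0.70 and -0.51, and Fbxo31, which targets cyclin D1, had -0.65. Fbxw7, the subunit that targets cyclin E, had 672.3 and 669.1 normalised counts without genistein and 852.4 and 793.6 with it.

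Of 12 transcriptional regulators of these genes, 6 were higher, 5 lower and 1 (Cbx7, 0.15) did not pass, with 33.5% higher and 38.2% lower over all tested genes. The shares were 30.1% and 54% over genes at or above the mean count of the lowest member. Foxo1 and Foxo3, which can raise Cdkn1b and repress D-type cyclins, had log2 fold changes of 1.33 and 1.21, and Foxo4 had -0.56. Myc, a driver of Ccnd2 and Cdk4, had 2850 and 2663 normalised counts without genistein and 1221 and 1324 with it (log2 fold change -1.12, adjusted p = 4.77e-12, edgeR). Bmi1, a Polycomb repressor of the Cdkn2a locus, had -0.82 (adjusted p = 3.45e-11, edgeR). Tbx2, also known to repress that locus, had 1.93 at 8.99 and 9.53 normalised counts without genistein and 40.3 and 30.4 with it.

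**Figure D4:**
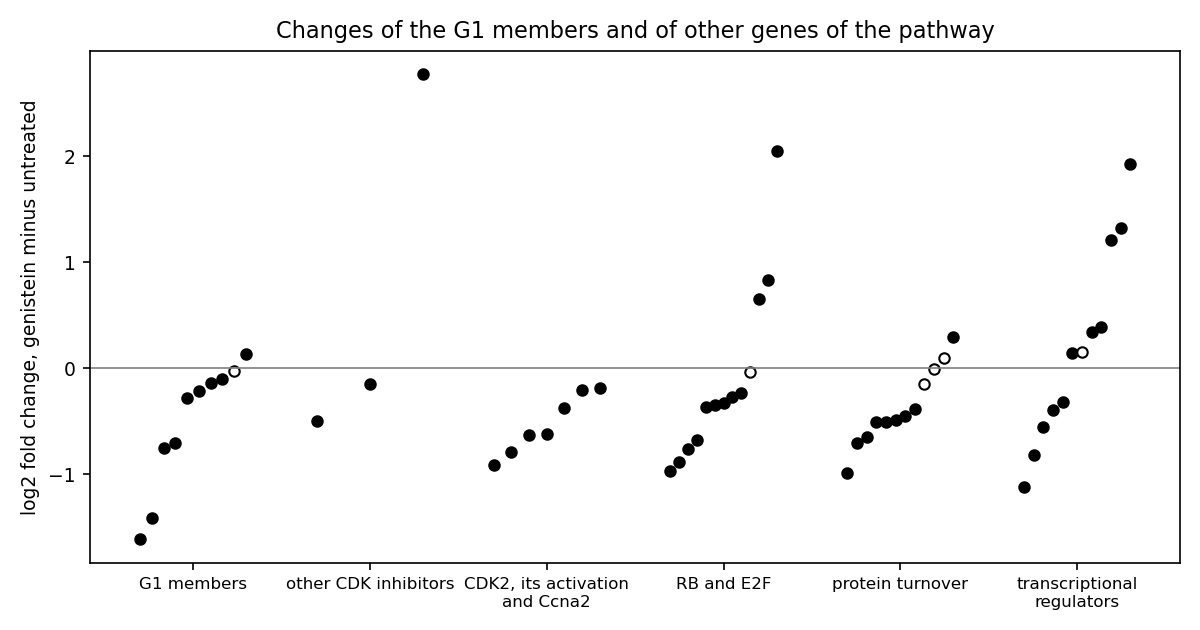
log2 fold change (genistein minus untreated) of the 10 G1 members and of the 47 tested genes of the 5 other lists, 1 point per gene, filled where the adjusted p-value was under 0.05 and open otherwise, in rising order within each list. Cdkn1a (2.78) and Rb1 (2.05) stand highest, and Ccne1 (-1.61) and Ccne2 (-1.41) lowest.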

How the data were processed

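Total RNA of MEF cells was depleted of ribosomal RNA and sequenced by the authors with a stranded kit, in 2 untreated and 2 genistein libraries grouped by their labels. The authors trimmed the reads with Trim Galore, aligned paired ends to mm10 with STAR and counted them over GENCODE genes and repeats with TEtranscripts. The authors deposited whole-number counts without normalisation. Library totals ran from 28591958 to 31464284, and 1 entry without a name, at 0.00208% to 0.00314% of a library, was left out.

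Symbols were matched to 47224 of 47937 gene identifiers, and coordinates and exon lengths were taken from a later GENCODE release on the same assembly (GRCm38) than the one the authors counted over, with positions counted from 1. Genes and repeats entered a single fit in edgeR 4.0.16 (R 4.3.3), after filterByExpr by group (16240 genes and 1118 repeats kept) and TMM scaling. Groups were compared with its quasi-likelihood test, and p-values were adjusted after Benjamini and Hochberg across every entry kept. The standard error was the log2 fold change divided by the square root of F, and 95% intervals used the t distribution of the fit. In leave-one-out fits the lone library was assumed to vary like the other group. Same-numbered libraries were not shown to share a batch, so no block was used. DESeq2 1.42.0 was an alternative. On simulated counts for this comparison, with 200 changed entries, the test called 96 of 98 tested entries changed by 2 on the log2 scale, 66 of 99 changed by 0.5 and 8 of 17064 unchanged. The simulation gave every entry the same dispersion and changed far fewer entries than were called in the data. Its rates may therefore not hold for the data.

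All members are named, and other pathway genes are named where past an adjusted p-value of 0.05 and an absolute log2 fold change of 0.5, or in lists of 4 or fewer, with a few named after their values were seen. Fbxw7, Cdk7, Ccnh, Mnat1, Tfdp2 and Cbx7 are such genes. The members and lists were chosen with earlier results of these data known. The share among genes at or above the mean count of the lowest member was added after seeing the data. Member proteins were not compared here.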

Additional observations from a re-analysis of the deposited data

How the results depend on the processing

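Ccnd1, Ccne1, Ccne2 and Cdk4 kept their direction and their side of the threshold under all 11 alternatives, and Ccnd3 and Cdk6 under all except the test against a log2 fold change of 0.5 (-0.28 and -0.22, both adjusted p = 1, edgeR). That test also lost Ccnd2 (0.13), Cdkn1b (-0.10) and Cdkn2a (-0.14) and gave 0 higher and 4 lower members, and 7 higher and 13 lower of the other pathway genes, by construction, where it called 14.7% of all tested genes higher and 14.9% lower. The cause of the other changes was not tested. Cdkn1b fell short with library totals (-0.027), factors from genes alone (-0.053) and DESeq2 (-0.11), and Cdkn2a likewise (-0.071, -0.098 and -0.15). Cdkn2b, not called, turned to 0.041 with library totals and 0.015 with factors from genes alone. The median log2 fold change of all genes was -0.03, and 0.04 with library totals.

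The replicate block, for numbers whose deviations correlated at -0.03, gave 0.13 for Ccnd2 (adjusted p = 0.0516, edgeR) and -0.10 for Cdkn1b (adjusted p = 0.0661, edgeR), with 0 higher members, and changed no other member's call. Leaving out each library gave ranges of 0.10 to 0.15 for Ccnd2, -0.129 to -0.058 for Cdkn1b, -0.198 to -0.090 for Cdkn2a and -0.074 to 0.015 for Cdkn2b, and 0 to 1 higher members. Cdkn2b turned to 0.0094 without untreated replicate 1 and 0.0148 without genistein replicate 1.

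With a mean count over 10, 9.21% of genes were called higher and 6.31% lower. With the longest transcript as length, the untreated and genistein shares were 47.3% and 34.9% for Ccnd1, 40.4% and 53.0% for Ccnd2 and 12.3% and 12.1% for Ccnd3, and with coding length 36.5% and 25.1%, 53.7% and 65.8%, and 9.87% and 9.08%. Detection of changes as small as those of the inhibitors was not simulated.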
